A study of Mus musculus with 13 samples.

Results

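Matrix metalloproteinases (MMPs) are zinc endopeptidases that cut collagens, elastin, proteoglycans and other proteins around cells. Most are made as inactive precursors, which become active when a propeptide is removed, and the active enzymes are held in check by tissue inhibitors of metalloproteinases (TIMPs) and by the membrane protein Reck. Several MMPs belong to the senescence-associated secretory phenotype (SASP), the set of secreted proteins by which senescent fibroblasts alter the matrix around them. Here the mRNA of 10 MMP genes was described, which were chosen by symbol and matched to the GRCm39 annotation, out of 57010 genes listed per library. They are the gelatinases Mmp2 and Mmp9, the collagenase Mmp13, the stromelysins Mmp3, Mmp10 and Mmp11, the membrane-bound Mmp14 and Mmp16, and Mmp19 and Mmp23. All 10 had enough counts to be tested.

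RNA came from primary wild-type (WT) mouse embryonic fibroblasts (MEFs), prepared from whole minced embryos without viscera, lung and heart, and grown at low oxygen. Control MEFs were WT cells labelled untreated, as are senescent MEFs without Fucoidan-FV, and the study states that controls had vehicle instead of etoposide. Senescent MEFs were WT cells that the study's methods describe as given 2 μM etoposide for 24 h and then 5 days of normal medium. Etoposide is a topoisomerase poison that breaks DNA. The other groups were senescent MEFs given Fucoidan-FV, a polysaccharide rich in sulfated fucose from the seaweed Fucus vesiculosus, at 100 or 300 μg/mL for 12 h. All 4 groups carry the WT genotype and hold cells of mice 4, 5 and 6. Control mouse 5 has a pair of libraries that were summed, so 13 libraries gave 3 mice per group, with 22782531 to 31278761 counts per library. The 9 fibroblast markers summed to between 10600 and 16500 CPM, which is the count scaled by library size and TMM factor, in every sample. Macrophage markers summed to 3.35 to 17.9 CPM, neutrophil markers to at most 0.34 CPM and epithelial markers to at most 2.24 CPM. In bulk RNA, fewer cells of a kind and less RNA per cell cannot be told apart.

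Libraries differed in their counts for genes whose exonic sequence occurs in only 1 annotated transcript. Over 2073 such genes the median log2 deviation from the mean library was −1.41 in control mouse 6, −1.1 in library 5(1) of control mouse 5, −0.75 in senescent mouse 5 and −0.91 in mouse 4 at 300 μg/mL, against −0.14 to 0.99 in the other libraries. These 4 libraries are called poorly capturing below, as a name for their low values. Where the difference arose was not tested. Mmp3, Mmp10 and Mmp13 consist wholly of such sequence, and results for Mmp13 are given with and without these 4 libraries below. The part that this difference between libraries plays in the results was tested only by the alternatives named beside them.

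Mmp13, Mmp3 and Mmp10 lie in a cluster of 10 MMP genes on chromosome 9 that spans 427.1 kb (GRCm39, chr9:7272514-7699587). Inducible MMP promoters are known for a site of the factor AP-1, a dimer of Fos and Jun proteins, near the start of transcription, and sites of Ets and Runx factors are known at the Mmp13 promoter. The 150 bases upstream of the canonical start site, read from the GRCm39 genome with GENCODE start sites, are shown 5′ to 3′ on the gene's strand for the 5 members that hold the AP-1 letters TGANTCA and for Mmp16. All 6 genes are on the plus strand, at chr9:7272364-7272513, chr9:7445672-7445821, chr9:7502203-7502352, chr2:164789989-164790138, chr10:128626623-128626772 and chr4:17852983-17853132 in the order printed, and none of the bases is transcribed in the canonical transcript. Capitals mark TGANTCA, the Ets letters AGGAAG, the Runx letters ACCACA and the TATA-box letters TATAAA where a match on either strand was found.
Mmp13: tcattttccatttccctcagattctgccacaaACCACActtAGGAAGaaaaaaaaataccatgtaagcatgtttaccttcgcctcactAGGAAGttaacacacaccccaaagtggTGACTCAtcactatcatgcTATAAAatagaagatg
Mmp3: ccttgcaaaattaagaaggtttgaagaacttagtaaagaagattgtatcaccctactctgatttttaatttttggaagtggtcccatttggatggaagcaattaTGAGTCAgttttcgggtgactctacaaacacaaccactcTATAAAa
Mmp10: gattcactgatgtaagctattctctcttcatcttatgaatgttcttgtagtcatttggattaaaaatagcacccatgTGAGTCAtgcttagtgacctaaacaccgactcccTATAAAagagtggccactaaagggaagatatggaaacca
Mmp9: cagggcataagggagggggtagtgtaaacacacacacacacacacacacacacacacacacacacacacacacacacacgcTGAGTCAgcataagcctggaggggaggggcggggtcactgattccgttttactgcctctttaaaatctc
Mmp19: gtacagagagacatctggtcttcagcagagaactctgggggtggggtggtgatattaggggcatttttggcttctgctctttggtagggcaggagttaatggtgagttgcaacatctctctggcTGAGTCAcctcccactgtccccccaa
Mmp16: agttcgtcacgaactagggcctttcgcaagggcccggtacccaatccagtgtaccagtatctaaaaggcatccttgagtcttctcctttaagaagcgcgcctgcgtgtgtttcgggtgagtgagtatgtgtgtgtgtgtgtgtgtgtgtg

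TGANTCA, which reads the same on both strands, begins 35 bases upstream of the start site of Mmp13, 46 bases upstream for Mmp3, 73 for Mmp10, 69 for Mmp9 and 26 for Mmp19. Within 250 bases upstream, 5 of the 10 members hold these letters, and 6.18% of 21656 protein-coding promoters of that length do. Among the promoters printed, that of Mmp13 alone holds all 4 motifs within 150 bases, with 2 copies of AGGAAG, the nearer one 62 bases upstream, and ACCACA 118 bases upstream. No matches overlapped in these windows. AGGAAG was found in 3 members, against 28.9% of all promoters, ACCACA in 3, against 13%, and TATAAA in 3, against 11.9%. TATAAA begins 16 bases upstream of the start site of Mmp13, 7 for Mmp3 and 39 for Mmp10. All distances are from the annotated start sites, and whether transcription starts there in these cells was not tested. The windows of Mmp2, Mmp11 and Mmp16 held none of the 4 motifs. A match of letters is not evidence of a bound factor, and a window without a match says nothing about the factor.

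Levels were compared between genes only per length, in TPM, which scales by transcript length and by library. Mmp14, a membrane-anchored collagenase that activates the precursor of Mmp2, was the most abundant member in every group, with medians of 573 TPM in control, 650 in senescent, 1020 at 100 μg/mL and 1120 at 300 μg/mL. Mmp2, a gelatinase, came next with medians of 263, 490, 632 and 644 TPM. Their ranges did not overlap in any group. Together they made up 87.1% to 93.5% of the summed TPM of the 10 members in each sample. That sum was 848 to 1100 TPM in control and 1240 to 1350 in senescent MEFs. It was 1680 to 2340 at 100 μg/mL and 1750 to 2200 at 300 μg/mL. Sums of TPM carry no TMM factor and were not tested between groups. In CPM, Mmp2 overlapped between senescent and treated MEFs at both doses, and Mmp14 overlapped at 100 μg/mL only. Neither gene passed the test against senescent MEFs at either dose.

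Mmp23 and Mmp11 followed in every group, at medians of 46.5 to 110 TPM and 25.3 to 51.2 TPM, and their ranges overlapped in control and at 300 μg/mL. The lower places changed between groups. In control MEFs Mmp9 ranked 5 of 10, at 2.35 to 23.2 TPM, a range that overlapped those of Mmp11 and Mmp19 on either side. In treated MEFs Mmp13 ranked 7, at 6.51 to 8.58 TPM with 100 μg/mL and 1.14 to 9.09 TPM with 300 μg/mL, above Mmp3, Mmp9 and Mmp10. In control MEFs, Mmp13, Mmp3 and Mmp10 were all at or below 0.28 TPM, with ranges that overlapped one another.

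**Figure D1:**
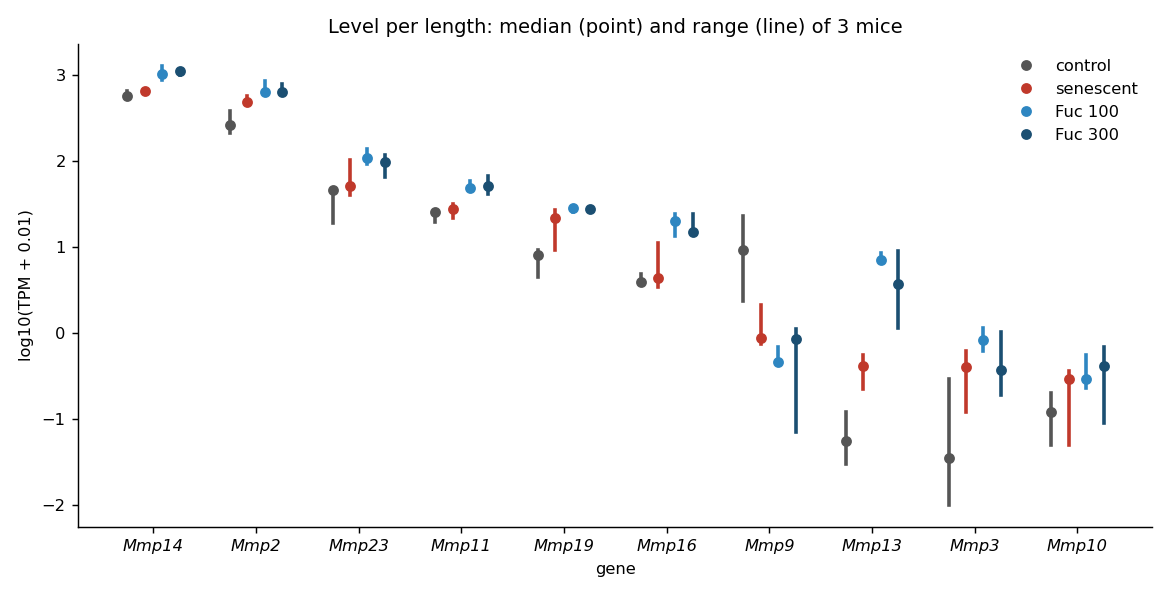
Level of each MMP per length, as log10(TPM + 0.01), in control, senescent, and Fucoidan-FV treated senescent MEFs (Fuc 100 and Fuc 300, in μg/mL); points are medians and lines the range of 3 mice. Mmp14 and Mmp2 lead in every group, Mmp9 drops from control to the other groups, and Mmp13 climbs from at most 0.11 TPM in control to 6.51 or more with 100 μg/mL.

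The first question was which MMP genes differ between etoposide-senescent and control MEFs. Of the 10 members, 3 were DEGs. A gene was called a DEG when it changed more than 1 log2 unit in either direction with an adjusted p below 0.05. Mmp13 and Mmp19 rose and Mmp9 fell. Over all 15034 genes tested, 4.47% were called higher and 3.95% lower. The members' median log2 fold change was 0.83, beside 0.07 over all genes tested.

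Mmp9 (ENSMUSG00000017737), a gelatinase that cuts denatured collagen and type IV collagen, stood at 3.23, 9.99 and 26.4 CPM in control mice 4, 5 and 6. In senescent MEFs it was 0.895, 2.11 and 1.26 CPM. Every senescent sample was below every control sample, and the control samples spread more than any other group. The fitted log2 fold change was −3.22 (SE 0.77 and adjusted p = 0.0161), a 9.3-fold lower level. Without control mouse 6 the difference was −2.22 (adjusted p = 0.0875), and without senescent mouse 4 it was −3.01 (adjusted p = 0.0793). The 8 markers of cartilage and bone, tissues in which Mmp9 and Mmp13 are known to act, summed to 620 to 878 CPM in control MEFs. They summed to 269 to 391 CPM in senescent and 136 to 251 CPM in treated MEFs. The median marker stood at only 2.11, 1.87, 1.19 and 1.86 CPM in control, senescent, 100 and 300 μg/mL. Of 6 tested in senescent against control MEFs, Col2a1 was called lower and Col10a1 higher, with a median log2 fold change of −0.14. None was called at either dose against senescent MEFs. Bglap was at 0 in all groups but senescent, and the part of these markers in the Mmp9 values was not tested.

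Mmp13 (ENSMUSG00000050578), a collagenase that cleaves fibrillar type II and type I collagen, had 5, 4 and 1 counts in control mice 4, 5 and 6, or 0.212, 0.0785 and 0.047 CPM. Senescent MEFs had 28, 9 and 26 counts, or 0.895, 0.388 and 0.883 CPM. All senescent samples were above all control samples, at levels where few reads were counted. The log2 fold change was 2.69 (SE 0.79 and adjusted p = 0.0429). The adjusted p was 0.0592 with the mouse as a block, at a log2 fold change of 2.56. It was also above 0.05 without any 1 of the control mice, senescent mouse 4 or 6, any of the mice at 100 μg/mL or mouse 5 at 300 μg/mL, with values of 2.42 to 3.36 and adjusted p of 0.0528 to 0.149. With an offset for the share of single-transcript sequence it was 2.6 (adjusted p = 0.0386), and without the 4 poorly capturing libraries it was 2.19 (adjusted p = 0.0569).

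Mmp19 (ENSMUSG00000025355), which cuts basement membrane proteins, had 13, 19.4 and 9.21 CPM in control mice 4, 5 and 6. In senescent MEFs it had 35.8, 41.4 and 23 CPM, with no overlap between the groups. The log2 fold change was 1.26 (SE 0.29 and adjusted p = 0.0141). Leaving out the 4 poorly capturing libraries gave 0.97 (adjusted p = 0.0643), and a fit of only the groups compared gave 1.27 (adjusted p = 0.0869). Of its exonic bases, 28.49% lie opposite Tmem198b and Gm47093, and whether counting used strand is not given in the sources used here. Tmem198b had 39.4 to 45.7 CPM in control and 35.2 to 56 CPM in senescent MEFs.

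Mmp2 had 253, 322 and 359 CPM in control mice 4, 5 and 6 and 467, 463 and 738 CPM in senescent MEFs. The groups did not overlap, and its log2 fold change of 0.84 (SE 0.23 and adjusted p = 0.0298) passed the p threshold but stayed under the fold threshold. Gm45472, which lies opposite 25.38% of its exonic bases, had 29.4 to 83.5 CPM in control and 77.1 to 184 CPM in senescent MEFs. Mmp14 had 703 to 842 CPM in control and 727 to 939 CPM in senescent MEFs, ranges that overlap, with a log2 fold change of 0.14 (SE 0.19). Mmp16, a membrane-anchored MMP that can also activate the precursor of Mmp2, differed by 0.46 (SE 0.33 and adjusted p = 0.425), and Mmp11 by 0.21 (SE 0.28 and adjusted p = 0.707). Mmp23 differed by 0.82 (SE 0.43 and adjusted p = 0.265), where senescent mouse 6 at 81.1 CPM stood apart from mice 4 and 5 at 29.1 and 25.1 CPM. Mmp3 and Mmp10, stromelysins that cut proteoglycans and other MMP precursors, had at most 20 counts in any control or senescent sample. Their log2 fold changes were 1.81 (SE 1.2) and 0.99 (SE 1.08), which were not detectable differences at this depth.

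**Figure D2:**
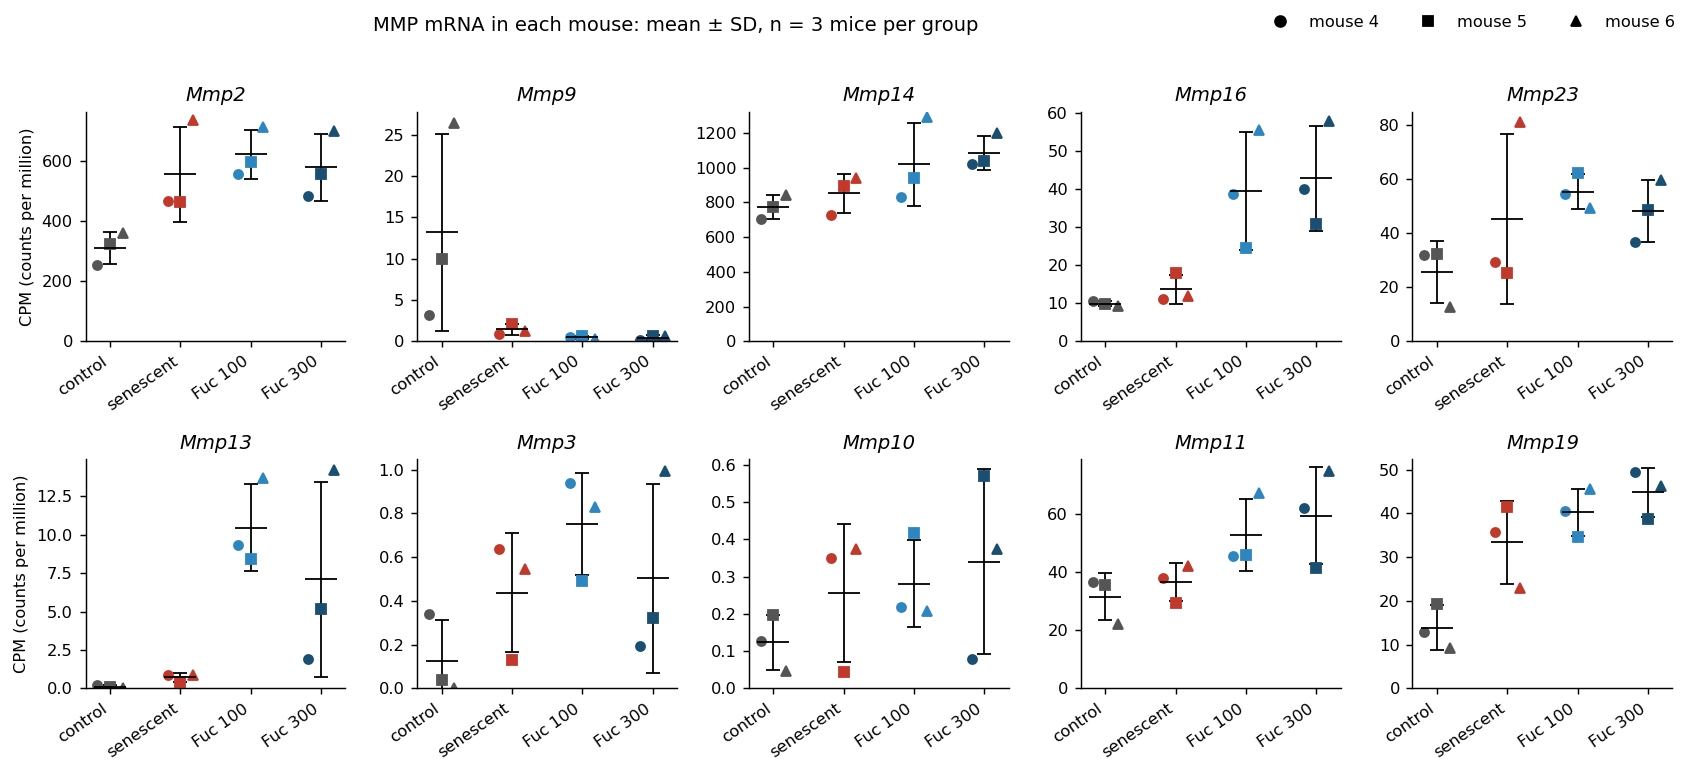
CPM of each MMP in every mouse, with each y axis starting at 0 and its own scale; bars give the mean ± SD of 3 mice, and the symbol marks the mouse. Mmp9 is highest in control, Mmp19 and Mmp2 are higher in senescent than in control MEFs without overlap, and Mmp13 and Mmp16 are higher in all treated than in all untreated samples.

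The second question was what Fucoidan-FV changed in senescent MEFs. Mmp13 and Mmp16 rose at both doses and no member was called lower, so 2 of 10 members were DEGs at each dose. Over all genes tested, 100 μg/mL gave 1.1% higher and 1.6% lower calls, while the higher dose gave 0.752% higher and 0.885% lower. The members' medians were 0.28 and 0.37 on the log2 scale, beside −0.02 and 0 over all genes. Both doses are compared with the same senescent samples, so their values are not independent of each other.

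Mmp13 rose from the 0.388 to 0.895 CPM of senescent MEFs to 9.3, 8.4 and 13.7 CPM in mice 4, 5 and 6 at 100 μg/mL, from 297, 222 and 397 counts. With 300 μg/mL it had 1.94, 5.16 and 14.2 CPM, from 50, 145 and 342 counts. Every treated sample was above every senescent one, and mouse 4 at 300 μg/mL, the lowest of the treated samples, is also 1 of the 4 poorly capturing libraries. The log2 fold change was 3.84 (SE 0.71 and adjusted p = 0.0112) at 100 μg/mL, a 14.3-fold higher level. It was called in each of the 23 alternatives that could be computed.

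At 300 μg/mL the log2 fold change of Mmp13 was 3.28 (SE 0.7 and adjusted p = 0.0297), a 9.7-fold higher level. With the mouse as a block it was 3.15 (adjusted p = 0.0525). The adjusted p also rose above 0.05 without any 1 of the senescent mice, mouse 4 or 5 at 100 μg/mL, or mouse 5 or 6 at 300 μg/mL, with the lowest value, 2.28 (adjusted p = 0.187), without mouse 6 at 300 μg/mL. With the offset for single-transcript sequence it was 3.29 (adjusted p = 0.0173), and without the 4 poorly capturing libraries 3.45 (adjusted p = 0.0259). A fit of only the groups compared gave 3.29 (adjusted p = 0.109).

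Mmp16 (ENSMUSG00000028226) had 11.1, 18 and 11.8 CPM in senescent mice 4, 5 and 6 and rose to 38.7, 24.4 and 55.4 CPM at 100 μg/mL. The higher dose gave 39.9, 30.7 and 57.7 CPM. In both treated groups mouse 5 was lowest and mouse 6 highest, and no treated sample overlapped the senescent or control range of 9.26 to 18 CPM. The log2 fold changes were 1.54 (SE 0.33 and adjusted p = 0.0228) at 100 μg/mL and 1.65 (SE 0.33 and adjusted p = 0.0245) at 300 μg/mL. The call was lost at 100 μg/mL without mouse 4 (1.55, adjusted p = 0.0767) or mouse 6 of that dose (1.21, adjusted p = 0.0828). At 300 μg/mL it was lost without mouse 4 (1.7, adjusted p = 0.0547) or mouse 6 of that dose (1.37, adjusted p = 0.146), and without the 4 poorly capturing libraries (1.97, adjusted p = 0.0518). With the mouse as a block and the offset for single-transcript sequence together, the adjusted p was 0.0758 at 100 (1.35) and 0.0515 at 300 μg/mL (1.6). A fit of only the groups compared gave 0.0668 and 0.0565. Endothelial markers, 7 genes, summed to 1.32 to 3.77 CPM in untreated and 5.35 to 13.4 CPM in treated MEFs. Tie1 was at 0 in senescent MEFs and at 300 μg/mL, and the median marker was at most 0.497 CPM in any group. Of 5 tested against senescent MEFs, only Tek was called higher at 100 μg/mL and none at 300 μg/mL. The median log2 fold changes of the 5 were 1.15 and 0.63. Skeletal muscle markers, 7 genes, summed to 74.7 to 122 CPM in untreated and 14.2 to 51.6 CPM in treated MEFs. Their median level was at most 0.17 CPM in any group, and Myf5 was at 0 in all groups. Of 3 tested, none was called at either dose against senescent MEFs. Against control MEFs only Acta1 was called lower, and the median log2 fold changes of the 3 were −1.44 at 100 and 0.4 at 300 μg/mL. The part of either marker set in the Mmp16 and Mmp13 values was not tested.

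Mmp9 stayed low, at 0.47, 0.681 and 0.277 CPM in mice 4, 5 and 6 at 100 μg/mL and 0.116, 0.64 and 0.581 CPM at 300 μg/mL. All treated samples were below all senescent samples. The log2 fold changes, −1.57 (SE 0.76 and adjusted p = 0.276) and −1.66 (SE 0.77 and adjusted p = 0.329), did not pass the test, from at most 49 counts per sample. Mmp11, a stromelysin named for its place in tumor stroma, had 29.5 to 42.2 CPM in senescent MEFs, 45.4 to 67.2 CPM at 100 μg/mL and 41.5 to 74.7 CPM at 300 μg/mL. Its log2 fold changes were 0.53 (SE 0.28 and adjusted p = 0.316) and 0.7 (SE 0.28 and adjusted p = 0.239), and the ranges overlapped at the higher dose only. Mmp14 differed from senescent MEFs by 0.26 (SE 0.19 and adjusted p = 0.491) and 0.35 (SE 0.19 and adjusted p = 0.43). For Mmp2, Mmp19 and Mmp23 the estimates at both doses lay between 0.06 and 0.42, and none passed the test. Mmp3 and Mmp10 had 0.0775 to 0.995 CPM in treated MEFs, and their estimates of 0.11 to 0.77 had SEs of 1.05 or more.

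**Figure D3:**
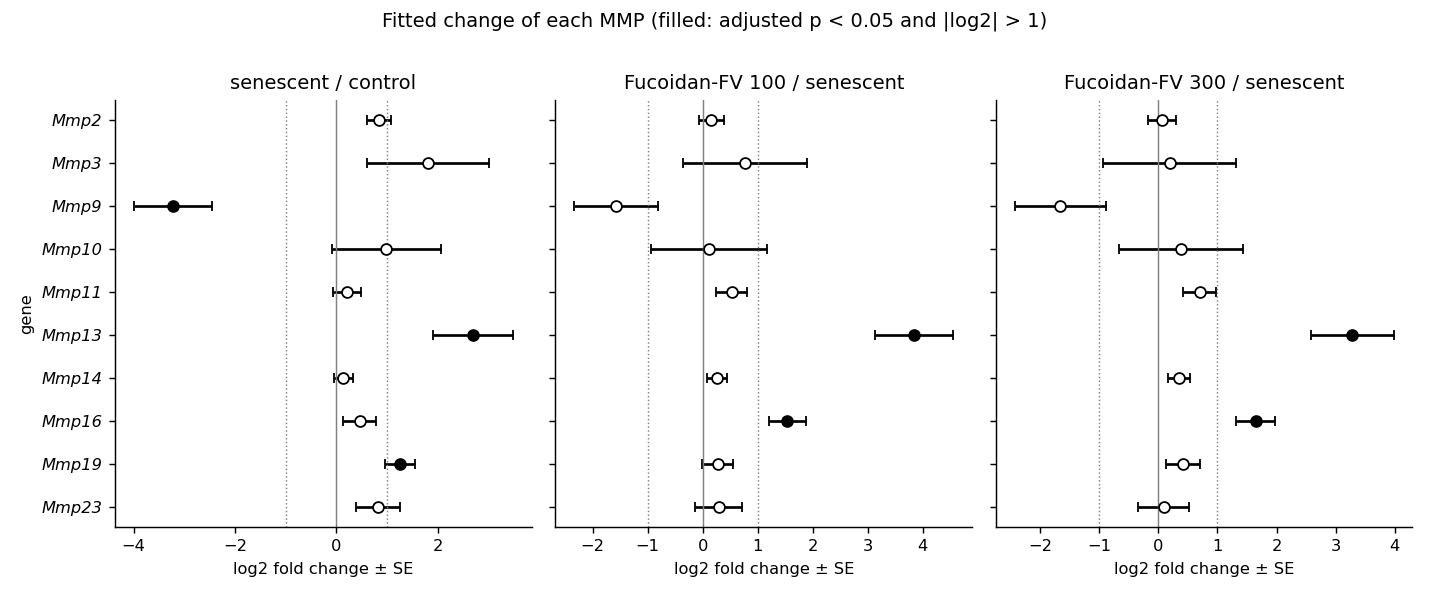
Fitted log2 fold change ± SE of each MMP (edgeR) in 3 comparisons, with filled points for DEGs and dotted lines at the fold threshold of 1 log2 unit. In senescent against control MEFs, Mmp9 lies at −3.22 and Mmp13 at 2.69, and at both doses of Fucoidan-FV only Mmp13 and Mmp16 are filled.

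Between the doses no member passed the test. edgeR called 0 of 10 members, 0 of them with an unadjusted p under 0.05, and DESeq2 called 0. Of all genes, 0% were called higher and 0.00665% lower at 300 than at 100 μg/mL. Mmp13 differed by −0.56 (SE 0.63) and Mmp16 by 0.11 (SE 0.32), and the samples of the doses overlapped for both.

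Against control MEFs, both doses gave the same 4 DEGs among the members, Mmp13, Mmp16 and Mmp19 higher and Mmp9 lower. Over all genes tested, 100 μg/mL gave 10.3% higher and 9.37% lower calls, and the other dose gave 9.87% and 8.11%. Mmp13 was higher by 6.53 (SE 0.85 and adjusted p = 0.000133) and 5.97 (SE 0.83 and adjusted p = 0.000241) on the log2 scale, relative to control samples of 1 to 5 counts. Mmp9 was lower, at −4.78 (SE 0.84 and adjusted p = 0.00108) and −4.87 (SE 0.84 and adjusted p = 0.00108). The log2 fold changes of Mmp16 were 2.0 (SE 0.34) and 2.11 (SE 0.34), and those of Mmp19 were 1.53 (SE 0.3) and 1.69 (SE 0.3). Mmp2 was higher by 1.0 (SE 0.23 and adjusted p = 0.00573) at 100 μg/mL, at the edge of the fold threshold, and by 0.9 (SE 0.23 and adjusted p = 0.0114) at 300 μg/mL. Mmp11 passed the p threshold at 300 μg/mL only, at 0.91 (SE 0.28 and adjusted p = 0.0294).

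Of 13 other MMP genes, 6 had enough counts to be tested. Mmp28, also called epilysin, was the only one of them called in senescent against control MEFs, and none was called at either dose against senescent MEFs, where edgeR gave 0 with an unadjusted p under 0.05 and DESeq2 called 0. Mmp28 had 3.14, 3.65 and 2.21 CPM in control and 10.8, 12 and 6.8 CPM in senescent mice 4, 5 and 6, a log2 fold change of 1.71 (SE 0.35 and adjusted p = 0.00693). It was not called without the 4 poorly capturing libraries, and DESeq2 called 3 of the other MMP genes higher in senescence. In the chromosome 9 cluster, 6 of the 10 genes had at most 1 count in every library. Mmp12, the macrophage elastase, which lies beside Mmp13 in that cluster, had 4, 13 and 0 counts in control, 22, 36 and 60 in senescent, 21, 43 and 246 at 100 μg/mL and 28, 40 and 97 at 300 μg/mL. Its log2 fold change in senescent against control MEFs was 3.19 (SE 1.1 and adjusted p = 0.0798). Against control it was called at both doses, at 4.52 (SE 1.14) and 3.79 (SE 1.12). Mmp28 was also called at both, at 1.8 (SE 0.36) and 1.91 (SE 0.36). Of the 6 tested, 3 were called higher at 100 and 2 at 300 μg/mL against control, beside 10.3% and 9.87% of all genes. Macrophage markers summed to 3.62 to 5.27 CPM in control, 3.35 to 17.9 CPM in senescent and 4.15 to 15.7 CPM in treated MEFs. Of these 8 markers only Lyz2 was called higher at either dose against control, and none was called in senescent against control MEFs. Their median log2 fold change was 1.76 in senescence, beside 0.07 over all genes. Against control it was 2.14 at 100 and 1.03 at 300 μg/mL, beside 0.09 and 0.07. The median marker was at most 0.863 CPM in any group, and the part of these markers in the Mmp12 values was not tested.

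Of 7 genes of MMP inhibitors, 4 were tested. In senescent against control MEFs 3 rose, Timp2, Timp3 and Reck. At 100 μg/mL Timp1 and Timp3 fell, and at 300 μg/mL they fell and Reck rose, all against senescent MEFs. Over these 4 genes, which went both ways, the median log2 fold change was 1.61 in senescence and −0.52 and −0.67 at the doses. DESeq2, which fitted all 7, gave medians of 0.93, 1.02 and −0.07, so the signs at 100 μg/mL differ. The genes that only DESeq2 fitted, Timp4, A2m and Pzp, had mean levels of at most 0.245 CPM in any group. With RLE factors the median of the 4 genes at 100 μg/mL was −0.43.

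Timp1, a soluble inhibitor of most secreted MMPs, had 1140, 1180 and 2480 CPM in senescent mice 4, 5 and 6 and 254, 230 and 298 CPM at 100 μg/mL. At 300 μg/mL it had 325, 244 and 242 CPM. The treated samples were all below the control range of 959 to 1120 CPM as well, with log2 fold changes against senescent MEFs of −2.62 (SE 0.28 and adjusted p = 0.00056) and −2.57 (SE 0.28 and adjusted p = 0.000956). Timp3, which is bound to the matrix, had 315 to 404 CPM in control and 927 to 1450 CPM in senescent MEFs, a log2 fold change of 1.72 (SE 0.2 and adjusted p = 0.000177). With Fucoidan-FV it had 450 to 580 CPM at 100 μg/mL and 464 to 511 CPM at 300 μg/mL, log2 fold changes of −1.12 (SE 0.2) and −1.24 (SE 0.2).

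Timp2, which also serves as the adaptor that lets Mmp14 bind the precursor of Mmp2, had 379 to 605 CPM in control and 1190 to 1530 CPM in senescent MEFs, a log2 fold change of 1.51 (SE 0.2 and adjusted p = 0.000437). It differed by 0.09 and −0.09 (SE 0.2 each) at the 2 doses. Reck, a membrane-anchored inhibitor, had 8.87 to 12 CPM in control, 23.5 to 51.3 CPM in senescent, 69.9 to 105 CPM at 100 μg/mL and 81.6 to 113 CPM at 300 μg/mL. These 4 ranges were apart except those of the doses, with a log2 fold change of 2.0 (SE 0.29 and adjusted p = 0.000721) in senescence. Against senescent MEFs it was 1.03 (SE 0.28 and adjusted p = 0.0579) at 100 and 1.25 (SE 0.28 and adjusted p = 0.0397) at 300 μg/mL, and the latter call was lost with the mouse as a block, where the list had 0 higher and 2 lower. Without the 4 poorly capturing libraries 2 inhibitors were called lower at 100 μg/mL and 1 at 300 μg/mL. None was called higher at either dose there, so the call of Reck at 300 μg/mL was lost. With the offset for single-transcript sequence 1 inhibitor rose and 2 fell with 100 μg/mL, while 1 rose and 1 fell with the higher dose. By DESeq2, 1 rose and 2 fell at each dose.

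**Figure D4:**
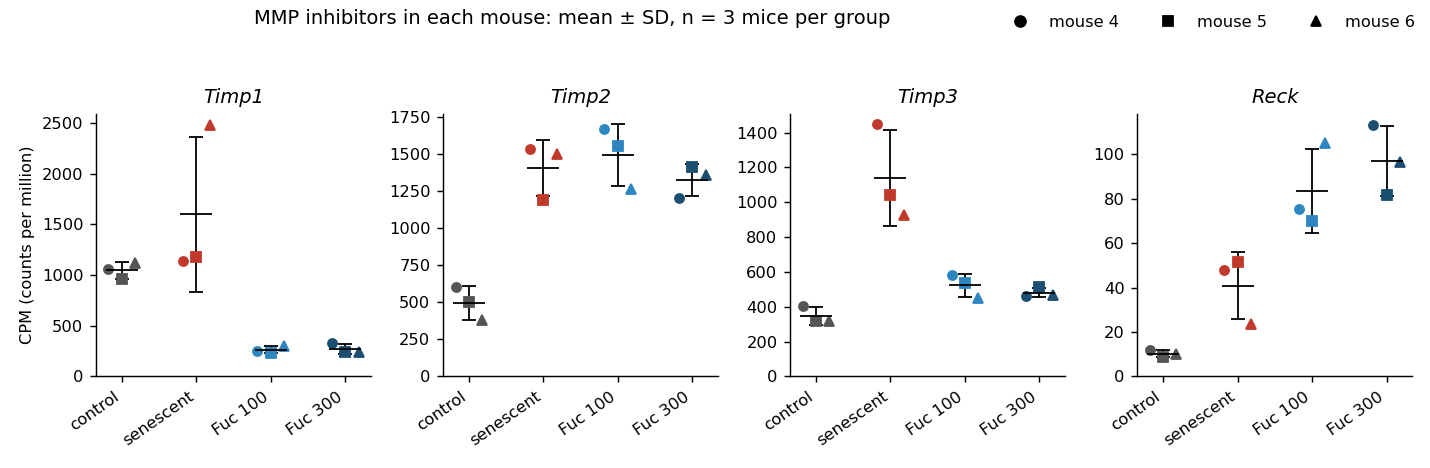
CPM of the 4 MMP inhibitors tested in every mouse, with each y axis starting at 0; bars give the mean ± SD of 3 mice. Timp1 lies at 230 to 325 CPM in all treated samples against 959 or more in untreated ones, Timp3 is highest in senescent MEFs, and Reck is lowest in control MEFs.

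Genes that activate, dock or clear MMPs were counted as 14, of which 13 were tested. In senescent against control MEFs, edgeR called 0 (6 with an unadjusted p under 0.05, 3 each way) and DESeq2 called 1 higher. Also 1 was called higher by edgeR with the mouse as a block. At 100 μg/mL Plaur, the urokinase receptor that focuses plasmin formation at the cell surface, and Cd44, a hyaluronan receptor that can hold Mmp9 and Mmp14 at the membrane, fell. They also fell at 300 μg/mL, where Pcsk6, a proprotein convertase, rose. Plaur went from 144, 137 and 152 CPM in senescent mice 4, 5 and 6 to 43.9, 39.4 and 29.3 CPM at 100 μg/mL and 49.2, 45.9 and 35.2 CPM at 300 μg/mL, with log2 fold changes of −1.94 (SE 0.2) and −1.73 (SE 0.19). Cd44 differed by −1.51 (SE 0.26 and adjusted p = 0.00793) and −1.22 (SE 0.26 and adjusted p = 0.0286) at the doses. Pcsk6 differed by 0.79 (SE 0.27 and adjusted p = 0.115) and 1.18 (SE 0.27 and adjusted p = 0.0397). Without the 4 poorly capturing libraries, 1 gene of this list was called lower at 100 μg/mL and 0 at 300 μg/mL. None was called higher at either dose, so the call of Pcsk6 was lost as well.

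All 15 genes of transcription factors known to bind MMP promoters were tested. In senescent against control MEFs edgeR and DESeq2 called 0 of them, with 4 lower and 0 higher at an unadjusted p under 0.05. At each dose against senescent MEFs 2 fell and 0 rose, Fosl1, a Fos-family partner in AP-1, and Etv4, an Ets-family factor. Fosl1 had 16.4, 13.9 and 22.4 CPM in senescent mice 4, 5 and 6 and 2.88, 2.39 and 0.45 CPM at 100 μg/mL, a log2 fold change of −3.2 (SE 0.56 and adjusted p = 0.00859). With 300 μg/mL it was −3.84 (SE 0.58 and adjusted p = 0.00634). Etv4 had 33.3 to 43.4 CPM in senescent MEFs against 2.39 to 4.96 CPM at 100 μg/mL and 4.77 to 6.9 CPM at 300 μg/mL, with log2 fold changes of −3.26 (SE 0.3) and −2.8 (SE 0.29). Without the 4 poorly capturing libraries 1 of the 15 was called lower at the higher dose.

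Of 13 matrix proteins that MMPs cut, all tested, Dcn and Spp1 rose in senescent against control MEFs. At 100 μg/mL 4 rose, Col3a1, Eln, Vcan and Dcn, and at 300 μg/mL 3 rose, Col3a1, Eln and Vcan, against senescent MEFs. Col3a1 lies outside the naming rule and was named after its values were seen. Dcn, a small collagen-binding proteoglycan, had 0.726 to 1.57 CPM in control, 12.7 to 22.9 CPM in senescent, 37.5 to 168 CPM at 100 μg/mL and 40.3 to 133 CPM at 300 μg/mL, with a log2 fold change of 3.95 (SE 0.67 and adjusted p = 0.00215) in senescence. Against senescent MEFs Dcn differed by 2.33 (SE 0.6 and adjusted p = 0.0477) at 100 and 2.22 (SE 0.6 and adjusted p = 0.0822) at 300 μg/mL. Eln, which encodes elastin, had 36.6, 49.3 and 71.9 CPM in senescent mice 4, 5 and 6 and 139, 141 and 311 CPM at 100 μg/mL, a log2 fold change of 1.9 (SE 0.45 and adjusted p = 0.0379). Spp1, which encodes osteopontin, had 387, 287 and 478 CPM in control and 1420, 1290 and 1080 CPM in senescent MEFs, a log2 fold change of 1.72 (SE 0.27 and adjusted p = 0.00129). Its estimates against senescent MEFs were −0.94 (SE 0.27 and adjusted p = 0.0651) at 100 and −0.98 (SE 0.27 and adjusted p = 0.0848) at 300 μg/mL, which did not pass the test. With the mouse as a block 2 were called at 100 and 1 at 300 μg/mL, and without the 4 poorly capturing libraries 1 and 0.

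For each member called in any comparison, the genes with the most similar profile were taken by Pearson's r of log2(CPM + 1) over the 12 samples, among 12646 genes. The points share libraries and group differences, and the values are a description. For Mmp13 they were Lum (r = 0.992) and Dpt (r = 0.982), genes of small matrix proteins that consist wholly of single-transcript sequence like Mmp13. For Mmp16 they were Gucy1a1 (r = 0.984), a subunit of soluble guanylate cyclase, and Erg (r = 0.973), an Ets-family factor of endothelium and cartilage. For Mmp9 they were Dscc1 (r = 0.965), a gene of DNA replication, and Palb2 (r = 0.947), a gene of homologous recombination. For Mmp19, Lrsam1 (r = 0.975), a ubiquitin ligase, was among them.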

How the data were processed

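RNA of MEFs was sequenced in 13 libraries of 4 groups with the mice numbered 4, 5 and 6. Per the labels and the Methods, the authors made stranded total RNA libraries, trimmed reads with Trimmomatic, aligned them to GRCm39 with STAR 2.7.11b and estimated expected counts per gene with RSEM 1.3.1, deposited without normalization. TPM values, which RSEM normalizes for length and depth, were deposited beside them by the authors. They were used here for levels between genes and, untested, for the summed level of the members.

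Expected counts were rounded, libraries 5(1) and 5(2) summed, and genes kept by filterByExpr (minimum count 10), leaving 15034. edgeR 4.0.16 in R 4.3.3 tested 6 comparisons with the quasi-likelihood test, TMM scaling, 1 fit to the 4 groups together and Benjamini-Hochberg adjustment over all genes tested. The script was tested on simulated data. Totals of 22782531 to 31278761 counts limit precision. The main fit had no covariate, so its p-values do not use the mouse number. The replicate block, an alternative, pairs mice of 1 number by their labels. Deviations from the group means correlated between same-numbered samples at −0.18 to 0.38 (median −0.002, 18 pairs, 8 above 0.1).

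The MMP genes and gene lists were chosen with earlier results of these data known. Named are all 10 MMPs, up to 4 called genes per list (largest change), and the 2 nearest profiles per called MMP, of which 1 is not reported here. Promoters came from GRCm39 with GENCODE start sites. The alternatives were DESeq2 1.42.0, RLE factors, other filters, 2-group fits, other uses of libraries 5(1) and 5(2), leaving out each mouse, a replicate block, an offset for single-transcript share and the adjusted p alone. Leaving out the 4 poorly capturing libraries was chosen after seeing the data.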

Additional observations from a re-analysis of the deposited data

How the results depend on the processing

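With 3 mice per group and 0 to 28 counts of Mmp13, Mmp3 and Mmp10 in untreated samples, depth limits these genes. The 60 fold changes of the members were recomputed under 1409 alternatives, of which 1316 kept direction and side of the threshold. The 15 called ones reversed in 0 alternatives and lost their call in 37, while 30 alternatives gave a call that was not there before. In each case below the cause was not tested, apart from genes or samples that an alternative removes. The smaller tests of 2 groups only and the filter of at least 10 counts in every sample, which drops Mmp9, Mmp13, Mmp3 and Mmp10, lower the counts by construction.

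Of members called in senescent against control MEFs, 3, the count was 1 with at least 10 counts in every sample, 1 with only the 2 groups and 1 without the 4 poorly capturing libraries, and 1 to 3 with a mouse left out (1 without control mouse 6 or senescent mouse 4). At 100 μg/mL against senescent, 2, it was 1 with that filter, with only the 2 groups and with the offset and the block together, and 1 to 2 with a mouse left out. At 300 μg/mL against senescent, 2, it was 1 with that filter, with libraries 5(1) and 5(2) separate, with 5(1) alone, with the replicate block, with the offset and block, and without the poorly capturing libraries. It was 0 with only the 2 groups and 0 to 2 with a mouse left out. Against control, 4 at each dose, DESeq2 gave 7 at 100 μg/mL and the filter 2 at 300 μg/mL. The replicate block alone ended the calls of Mmp13 in senescence and at 300 μg/mL and added one for Mmp2 at 100 μg/mL against control. Together with the offset it ended those of Mmp16 at both doses against senescent MEFs (1.35 and 1.6), which the offset without the block kept. Other alternatives did the same to Mmp2 and Mmp13. Mmp2 at 100 μg/mL against control was called in 16 of 24 alternatives. Mmp13 in senescence lost its edgeR call in 13 of 22, among them library 5(1) alone (adjusted p = 0.0529) and 5(2) alone (adjusted p = 0.0854).

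Reversals concerned differences that were not called. Leaving out 1 mouse gave −0.1 to 0.37 for Mmp2 and −0.76 to 0.63 for Mmp3 at 300 μg/mL against senescent, −0.27 to 0.62 (100) and −0.2 to 0.85 (300) for Mmp10, and −0.13 to 0.88 for Mmp23 at 300 μg/mL. Between the doses it gave −0.26 to 0.02 for Mmp2, −0.45 to 0.36 for Mmp9, −0.31 to 0.74 for Mmp10, −0.03 to 0.38 for Mmp11, −0.04 to 0.29 for Mmp14 and −0.16 to 0.44 for Mmp16. Mmp10 at 100 μg/mL against senescent was −0.06 with the replicate block, −0.24 with the offset, −0.32 with both and −0.27 without the poorly capturing libraries, where Mmp9 between doses was 0.29 and Mmp23 at 300 μg/mL 0.0.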
